A study of Mus musculus with 16 samples.

Results

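The 37 genes described here make cholesterol, fatty acids and the lipids of the epithelial water barrier, or regulate and move them. They were chosen by name for those roles, and all 37 were found among the 41411 genes of the table. The tissue was esophagus of C57BL/6 mice, measured by CEL-Seq, which counts short reads from the 3′ ends of transcripts. The 16 libraries, 4 in each of 4 groups, came from wild-type mice given vehicle (WT vehicle), wild-type mice given OXA (WT OXA), and Il13ra1-/- mice given vehicle (KO vehicle) or OXA (KO OXA). OXA is an oxazolone, a small chemical allergen used here to raise a model of eosinophilic esophagitis, an allergic inflammation of the esophagus. Il13ra1 is a chain of the receptor through which IL-13 signals, so the design asks how much of the response to OXA needs that receptor. The sources used here give no ages, doses or times. The labels do not state that the libraries of a group are separate animals, so the p-values measure the spread between these libraries.

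Cholesterol is built from acetyl-CoA by way of mevalonate, farnesyl pyrophosphate, squalene and lanosterol, and the enzymes of this route are classic targets of the transcription factor SREBP2, made by Srebf2. SREBP1, made by Srebf1, drives fatty acid synthesis, while INSIG1 holds both factors back in the endoplasmic reticulum when sterols are plentiful. In stratified squamous epithelium, elongases and ceramide synthases make very long acyl chains and ceramides that suprabasal cells load into lamellar granules and set out between cells as a barrier.

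Depth differed between the groups: WT libraries held 5.61 to 9.55 M reads (M, mega) under vehicle and 20.2 to 27.3 M under OXA, and KO libraries 7.91 to 16.5 M and 8.82 to 15.2 M. The targeted gene Il13ra1 read 207, 226, 197 and 134 normalised read counts in WT vehicle and 584, 673, 752 and 874 in WT OXA. It read 31.2, 64.7, 48.7 and 55.8 in KO vehicle and 44.0, 174, 68.1 and 110.3 in KO OXA, so KO libraries were low but not at 0, and KO OXA replicate 2 lay within the WT vehicle range. KO minus WT, its log2 difference was -1.93 ± 0.32 under vehicle (adjusted p = 0.0267) and -3.02 ± 0.32 under OXA (adjusted p = 1.10e-06). No source used here says whether the counted 3′ end lies outside the deleted stretch, and the residual reads therefore check the labels only in part. Squamous epithelial markers were plentiful in every library, and all 10 were detected in each group. Their summed values in WT OXA, 0.469 to 0.762 M, lay below those of the other groups, which ranged from 1.29 to 2.81 M. These genes did not move together in WT, where 3 rose (Krt14, Cdh1 and Dsg3), 3 fell (Krt15, Krt13 and Krt78) and 4 did not pass.

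Of the 37 genes, 35 passed the filter on low values, and each of these had at least 39 reads in every library. Elovl3, an elongase known from skin and brown fat, had 0 reads in all 16 libraries. With 3 reads as the limit that a count of 0 allows, its level was at most 0.0981 reads per M in WT vehicle and 0.0322 per M in WT OXA. The KO limits were 0.0583 per M under vehicle and 0.0648 per M under OXA. Fdps, which makes farnesyl pyrophosphate, had 1 read in all, in WT OXA replicate 1. The last 500 bases of the annotated Fdps gene are shared on the same strand by Gm43738, whose group means were at most 0.778. A count so near 0 says little about Fdps itself, since no source used here says how reads in shared stretches were counted.

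In wild-type esophagus, OXA was followed by lower transcript levels of late sterol enzymes, of 3 elongases, of Fasn and of the barrier lipid genes Abhd5 and Pnpla1. Of the 35 tested members 15 fell and 2 rose. Over all 16748 tested genes 16% fell and 18% rose, 34% in all. The median log2 difference was -0.32 over the members and 0.10 over all genes. The OXA and vehicle libraries did not overlap for 15 members in the downward direction and 4 in the upward direction, against 15.7% and 18.5% of all genes. In bulk tissue, fewer cells that make a transcript and less transcript per cell cannot be told apart. Scaling every library to the same total moved the median log2 difference of all genes up by 0.31, to 0.41. The members then split into 8 that rose and 7 that fell, and all 7 were among the 15. Those 7 were Lss, Msmo1, Tm7sf2, Insig1, Elovl6, Elovl7 and Pnpla1. Over all genes 30.5% rose and 8.93% fell at that scaling. The count of rises was 4 without WT OXA replicate 1 (Hmgcs1 and Idi1 in addition) and 1, Stard4, when replicate 4 of WT vehicle or 1 of replicates 2, 3 and 4 of WT OXA was left out.

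In Il13ra1-/- esophagus OXA was followed by 0 falls among the members. Cyp51 was the 1 member that rose, against 1.81% of all genes, and 0 fell, against 0.0896% (1.9% in all). The OXA and vehicle libraries did not overlap for 5 members upward and 0 downward, against 3.93% and 2.94% of all genes. At an unadjusted p under 0.05, 11 members were higher and 0 lower, against 9.44% and 4.78% of all genes, and the median log2 difference was 0.29 over the members and -0.01 over all genes. No fall passed with edgeR or DESeq2 either. KO OXA replicate 4 was the lowest library of its group for 19 of the 35 members, and without it 8 members rose, namely Cyp51, Idi1, Fdft1, Msmo1, Hsd17b7, Acly, Elovl4 and Elovl7. Over all genes 5.3% rose and 0.95% fell without that library. This library also had the most genes detected, 23730 against 16954 to 18278 in the other KO OXA libraries. It was the deepest of its group as well, at 15.2 M reads against 8.82 to 11.8 M. The part of these differences in the result was not tested.

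The effect of OXA differed between the genotypes for 12 members, each higher in KO than in WT, and 0 in the other direction (1 at an unadjusted p under 0.05). The interaction passed upward for 10.1% of all genes and downward for 7.67%, 17.8% in all. With equal library totals 7 of the 12 passed (Lss, Msmo1, Tm7sf2, Insig1, Elovl6, Elovl7 and Pnpla1), and 3 others, Hmgcs1, Srebf2 and Stard4, passed downward. At that scaling the interaction passed upward for 5.27% of all genes and downward for 20.7%. Under vehicle no difference between KO and WT passed: 0 members were called, 0 had an unadjusted p under 0.05, and 0 passed with edgeR or DESeq2, against 0.0358% higher and 0.0239% lower (0.0597% in all) over all genes in limma. The groups did not overlap for 0 members upward and 0 downward there, against 2.66% and 2.69% of all genes. Under OXA 17 members were higher in KO than in WT and 1 was lower, against 14.6% and 12.9% of all genes (27.6% in all). The OXA groups did not overlap for 15 members upward and 1 downward, against 14% and 15.3%. Equal totals gave 9 higher and 3 lower there, against 7.6% and 30.5% of all genes at that scaling. The lower call, Srebf2, was lost without any 1 of WT OXA replicates 3 and 4 and KO OXA replicates 2 and 3, while Stard4 was a further lower call without WT OXA replicate 1 or KO vehicle replicate 4. The comparisons share libraries (WT OXA stands in the first, the interaction and the last), so their counts are not separate evidence.

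**Figure D1:**
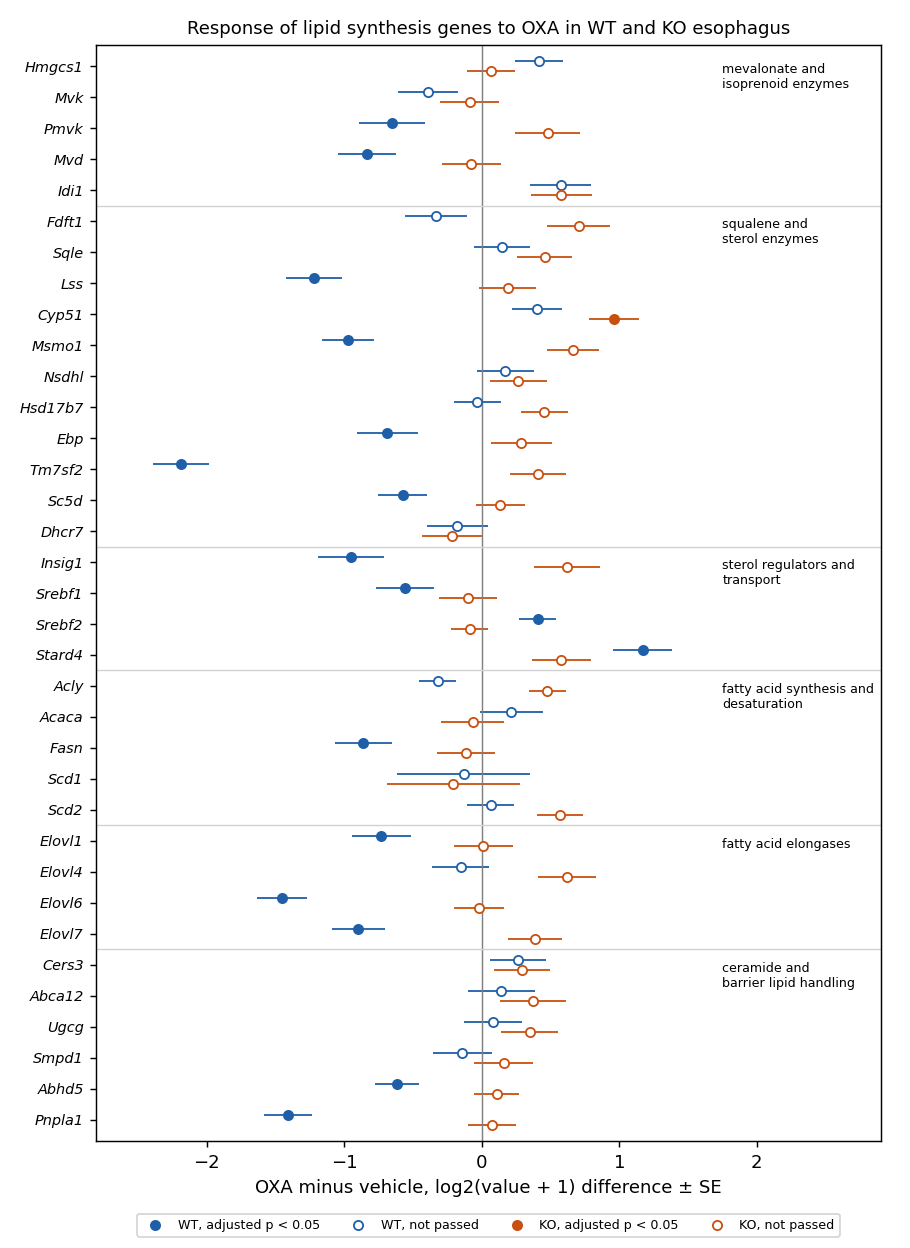
OXA minus vehicle difference of log2(value + 1), with its SE, for the 35 tested members in WT (blue) and KO (orange), grouped by role. Filled points passed the limma test, and the 17 filled WT points stand against 1 filled KO point, Cyp51. Over all tested genes 34% passed in WT and 1.9% in KO.

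The early enzymes of the sterol route, through mevalonate, did not move as a block in WT. Hmgcs1 is the HMG-CoA synthase at the start of the route. In WT it read 2133, 1874, 1835 and 1475 normalised counts under vehicle and 1854, 2712, 2134 and 3179.6 under OXA. In KO it read 1855, 1842, 1829 and 2626 under vehicle and 1829.9, 2313, 2171 and 2153 under OXA. The groups overlapped, with WT OXA replicate 1 inside the range of WT vehicle and the other 3 WT OXA libraries above it, replicate 3 by a narrow margin. The log2 difference in WT was 0.41 ± 0.17 (adjusted p = 0.0727), and in KO it was 0.07 ± 0.17. The WT difference was called with equal totals (adjusted p = 0.00294), quantile normalization and DESeq2, and without WT OXA replicate 1.

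Pmvk and Mvd, which carry mevalonate phosphate toward isopentenyl pyrophosphate, fell in WT. For Mvd the WT vehicle libraries read 246, 153, 177 and 216 normalised counts and the WT OXA libraries 106, 107, 98.5 and 126, with no overlap. In KO, Mvd read 208, 163, 212 and 226 under vehicle and 216, 142, 161 and 266 under OXA, with overlap. Its log2 level fell by 0.83 ± 0.21 in WT (adjusted p = 0.00505), the difference in KO was -0.08 ± 0.21, and the interaction, 0.76 ± 0.30, did not pass (adjusted p = 0.0873). Equal totals ended the WT call (adjusted p = 0.0696). The last 500 bases of Mvd are shared with Gm20388 on the opposite strand, a gene at 614 in WT vehicle and 640.0 in WT OXA, and no source used here says which strand was counted.

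Pmvk read 204, 158, 155 and 154 in WT vehicle and 102, 112, 85.5 and 127 in WT OXA, again without overlap. It read 169.6, 170.0, 196 and 231 in KO vehicle and 460.2, 281, 197 and 195 in KO OXA, where replicate 1 stood well above the others. On the log2 scale Pmvk fell by 0.65 ± 0.24 in WT (adjusted p = 0.0406) and its interaction was 1.13 ± 0.34 (adjusted p = 0.0251). The WT call was lost without any 1 of 7 libraries, WT vehicle replicates 1, 2, 3 and 4 and WT OXA replicates 1, 2 and 3 (adjusted p 0.0510 to 0.122). It was also lost with no filter (0.0621), equal totals (0.232) and reads thinned to the shallowest library (0.0704). The interaction was lost with equal totals and without WT OXA replicate 3, KO vehicle replicate 1 or KO vehicle replicate 2 (0.0520 to 0.0596). Mvk, mevalonate kinase, averaged 317 ± 104 in WT vehicle and 234 ± 44.1 in WT OXA (SD, n = 4), and its log2 difference of -0.39 ± 0.22 did not pass. Idi1, the isomerase of isopentenyl pyrophosphate, had a log2 difference of 0.57 ± 0.22 in WT (adjusted p = 0.0512) and 0.58 ± 0.22 in KO (adjusted p = 0.232). Its WT OXA libraries, 1261 to 1697, all lay above its WT vehicle libraries, 666 to 1204. Of these 5 tested mevalonate genes 2 fell in WT and 0 in KO.

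In the later route, from squalene to cholesterol, of 11 enzymes 5 fell in WT (Lss, Msmo1, Ebp, Tm7sf2 and Sc5d), 0 rose, and 6 did not pass. In KO 10 of the 11 had a log2 difference above 0, and 1 of them, Cyp51, passed.

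Tm7sf2 reduces a double bond of the sterol ring. It read 229.9, 374, 323 and 394 normalised counts in WT vehicle and 56.6, 85.7, 75.3 and 67.0 in WT OXA. The KO libraries read 231, 280.5, 274 and 302 under vehicle and 491, 335, 348 and 295 under OXA. Every WT OXA library lay below every other library of the study. The log2 level fell by 2.19 ± 0.20 in WT (adjusted p = 1.67e-07), the difference in KO was 0.41 ± 0.20 (adjusted p = 0.371), and the interaction was 2.60 ± 0.29 (adjusted p = 5.03e-06). This was the member with the largest absolute log2 difference in both the WT comparison and the interaction. Tm7sf2 spans a stretch that also holds Vps51 in the annotation. Vps51 was not among the genes found to share the last 500 bases of a member. Lbr, another reductase of the same step, no member of the set and named after its values were seen, had a WT log2 difference of -0.13 ± 0.22 (adjusted p = 0.685).

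Lss closes squalene epoxide into lanosterol, the first sterol. Its values were 497, 359, 348 and 415 in WT vehicle and 166, 200.1, 108 and 240.3 in WT OXA. In KO they were 366, 313, 429.9 and 414 under vehicle and 453, 399, 397 and 479 under OXA. The WT OXA group stood apart below the other groups, which overlapped one another. Lss fell by 1.22 ± 0.20 on the log2 scale in WT (adjusted p = 0.000147), against 0.19 ± 0.20 in KO, with an interaction of 1.41 ± 0.29 (adjusted p = 0.00246).

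Msmo1 oxidises the methyl groups that must leave lanosterol. The WT vehicle libraries read 2908, 3358, 2935 and 2681 and the WT OXA libraries 1157, 1574, 1598 and 1782. The KO vehicle libraries read 2452, 2478, 2598 and 3619 and the KO OXA libraries 6012, 4382, 4569.9 and 2983. WT OXA was again below all other libraries, while 3 of 4 KO OXA libraries were above every KO vehicle library. The log2 level fell by 0.97 ± 0.19 in WT (adjusted p = 0.000648). In KO the difference was 0.66 ± 0.19 (adjusted p = 0.0916), and the interaction was 1.63 ± 0.27 (adjusted p = 0.000415).

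Ebp shifts a double bond within the sterol ring. Its WT libraries read 1026, 923, 923 and 849 under vehicle and 448, 646, 569 and 671 under OXA, without overlap. Its KO libraries read 993, 915, 689 and 886 under vehicle and 1887, 686, 1003 and 950.2 under OXA, with KO OXA replicate 1 highest and replicate 2 lowest in that comparison. Ebp fell by 0.69 ± 0.22 on the log2 scale in WT (adjusted p = 0.0226) and its interaction was 0.97 ± 0.32 (adjusted p = 0.0377). Leaving out replicate 1 of either WT group ended the WT call (0.0545 to 0.0791). The interaction was lost without any 1 of 9 libraries, WT vehicle replicates 1 and 3, WT OXA replicates 1 and 3, KO vehicle replicates 2, 3 and 4 and KO OXA replicates 1 and 3 (0.0532 to 0.0818). Equal totals ended both calls, and testing all genes without a filter ended the interaction call.

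Fdft1, squalene synthase, passed only in the interaction and in KO against WT under OXA. In WT it read 2502, 1874, 1587 and 2269 under vehicle and 1634, 1602, 1494 and 1723 under OXA. In KO it read 1646, 1526, 1691 and 2126 under vehicle and 5249.6, 2841, 2049.8 and 2088 under OXA. All 4 KO OXA libraries lay above all WT OXA libraries, and KO OXA replicate 1 stood far above the rest. The log2 difference was -0.33 ± 0.23 in WT (adjusted p = 0.279) and 0.71 ± 0.23 in KO (adjusted p = 0.139), with an interaction of 1.04 ± 0.32 (adjusted p = 0.0308). Leaving out any 1 of 7 libraries ended the interaction call (0.0509 to 0.0635), namely WT vehicle replicates 1 and 4, WT OXA replicates 2 and 3 and KO vehicle replicates 1, 2 and 3. The interaction was also lost with no filter (adjusted p = 0.0618), equal totals (0.127) and quantile normalization (0.0524), and the difference between genotypes under OXA with equal totals (0.125). The 500-base tail of Fdft1 is shared on the opposite strand by Ctsb, which is itself at 2669 in WT vehicle and 3106 in KO OXA.

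Sqle, squalene epoxidase, is a control point of the route. It read 729.8, 672, 640.4 and 731 in WT vehicle and 572, 841, 636 and 1128 in WT OXA, with overlap. It read 679, 555, 638 and 742 in KO vehicle and 1335, 773, 802 and 767 in KO OXA, where the groups did not overlap and replicate 1 stood apart. Neither log2 difference passed, 0.15 ± 0.20 in WT (adjusted p = 0.614) and 0.46 ± 0.20 in KO (adjusted p = 0.307).

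Cyp51, the lanosterol demethylase, was the single member called in KO. Its KO libraries ranged from 1653 to 2265 under vehicle and from 2488 to 4987 under OXA, without overlap. It rose by 0.96 ± 0.18 on the log2 scale in KO (adjusted p = 0.00442), and this call held in all 26 alternatives. In WT its libraries also separated upward, 1657 to 2306 against 2412 to 2719, with a log2 difference of 0.40 ± 0.18 (adjusted p = 0.0932). The interaction was 0.56 ± 0.26 (adjusted p = 0.138). Under OXA Cyp51 was higher in KO than in WT by 0.50 ± 0.18 (adjusted p = 0.0471), a call lost without any 1 of 11 libraries (0.0503 to 0.166): WT vehicle replicates 2 and 3, WT OXA replicates 1 to 4, KO vehicle replicates 1, 2 and 3 and KO OXA replicates 1 and 2. It was also lost with equal totals, quantile normalization, no filter and a fit to those groups alone. Akap9 shares 166 bases of the Cyp51 tail on the opposite strand, with group means from 673 to 841.

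Sc5d, which sets a double bond late in the route, fell by 0.58 ± 0.18 on the log2 scale in WT (adjusted p = 0.0164), from 624 ± 53.6 to 419 ± 40.5 (SD, n = 4 each). Its interaction, 0.71 ± 0.25, did not pass (adjusted p = 0.0545), and equal totals ended the WT call (adjusted p = 0.174). Nsdhl and Hsd17b7, which act with Msmo1 in removing methyl groups, showed log2 differences of 0.17 ± 0.20 and -0.03 ± 0.17 in WT and 0.27 ± 0.20 and 0.46 ± 0.17 in KO. Dhcr7, which makes a final reduction to cholesterol, showed -0.18 ± 0.22 in WT and -0.21 ± 0.22 in KO. None of these 3 passed in any comparison.

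**Figure D2:**
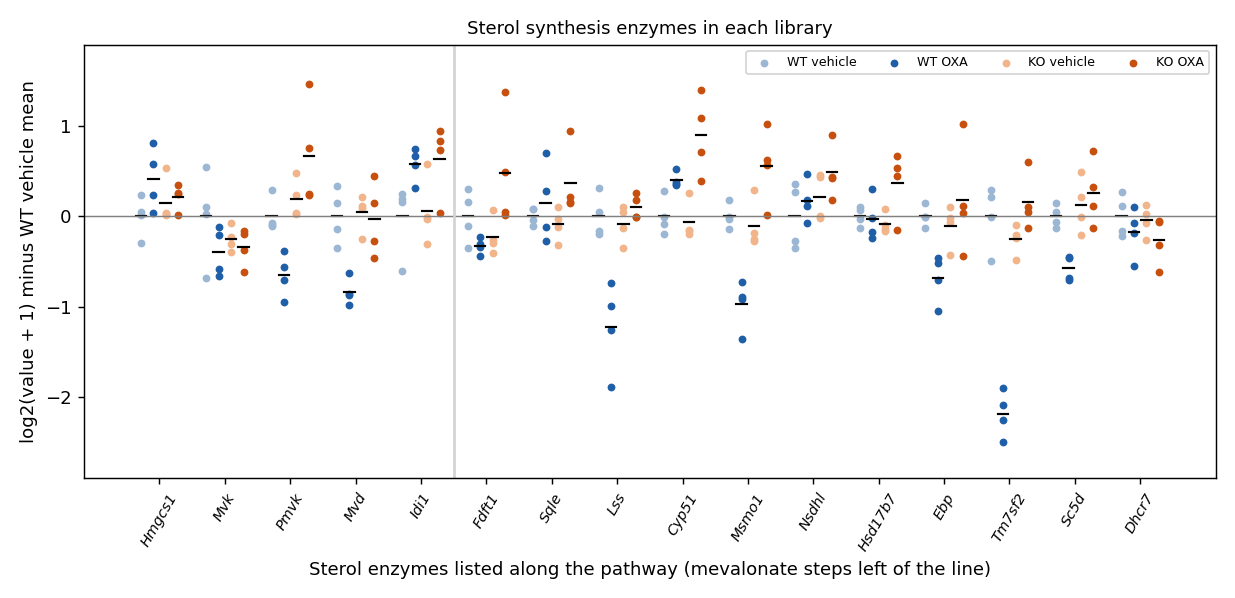
Each dot is 1 library, as log2(value + 1) minus the WT vehicle mean of that gene, for the 16 tested sterol enzymes in pathway order, with black bars for group means. In WT OXA (dark blue) Pmvk, Mvd, Lss, Msmo1, Ebp and Tm7sf2 lie below every other library. Hmgcs1, Idi1, Sqle, Cyp51 and Nsdhl have WT OXA means above 0.

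The start regions of these genes were also read. RefSeq promoter windows (GRCm38.p6), each taken as the 250 bases before the annotated start, were found for 30 of the 37 members. The search covered 3 motifs on both strands: CCAAT (a binding word of the factor NF-Y, a partner of SREBP), TCACNCCAC (a form of the sterol regulatory element) and CACGTG (an E-box). CCAAT stood in the windows of all 14 sterol enzymes that had one and of all 3 regulators, against 37.5% of 27025 genes and 33.9% of 32851 windows. It stood in 2 of 7 fatty acid enzymes and elongases and 2 of 6 ceramide and barrier genes. TCACNCCAC stood in 1 member, Hmgcs1, and in 1.22% of genes, and CACGTG in 4 members, Dhcr7, Hsd17b7, Insig1 and Sc5d, and in 6.86% of genes. A match describes the letters only and is no evidence of binding. Below are the 150 bases before the start of Hmgcs1, which did not pass, of Mvd, Lss, Ebp and Sc5d, which fell in WT, and of Pnpla1, a barrier gene that fell, each 5′ to 3′ on the gene's strand. Capitals mark matches to the 3 motifs on either strand, CCAAT reading as ATTGG on the other.
Hmgcs1: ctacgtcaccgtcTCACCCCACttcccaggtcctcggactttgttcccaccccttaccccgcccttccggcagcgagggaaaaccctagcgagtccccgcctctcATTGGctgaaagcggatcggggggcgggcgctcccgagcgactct
Mvd: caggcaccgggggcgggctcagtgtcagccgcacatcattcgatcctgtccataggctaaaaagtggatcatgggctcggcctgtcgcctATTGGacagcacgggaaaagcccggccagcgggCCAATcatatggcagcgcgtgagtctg
Lss: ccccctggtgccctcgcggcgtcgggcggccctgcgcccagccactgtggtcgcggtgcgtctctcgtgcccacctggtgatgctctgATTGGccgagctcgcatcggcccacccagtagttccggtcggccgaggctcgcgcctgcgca
Ebp: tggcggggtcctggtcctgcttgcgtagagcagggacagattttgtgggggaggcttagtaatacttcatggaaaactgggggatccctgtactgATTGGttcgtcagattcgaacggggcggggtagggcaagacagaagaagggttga
Sc5d: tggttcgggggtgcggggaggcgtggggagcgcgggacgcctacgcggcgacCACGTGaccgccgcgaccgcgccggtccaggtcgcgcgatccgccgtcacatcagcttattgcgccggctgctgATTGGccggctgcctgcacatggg
Pnpla1: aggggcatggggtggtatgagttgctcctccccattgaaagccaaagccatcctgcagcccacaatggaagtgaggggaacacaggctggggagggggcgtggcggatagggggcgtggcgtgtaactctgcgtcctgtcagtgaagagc
Their positions are chr13:119690201-119690350, plus strand (Hmgcs1), chr8:122443423-122443572, minus strand (Mvd), chr10:76531455-76531604, plus strand (Lss), chrX:8193513-8193662, minus strand (Ebp), chr9:42264301-42264450, minus strand (Sc5d) and chr17:28858261-28858410, plus strand (Pnpla1). Hmgcs1, Mvd and Lss thus all carry CCAAT near their starts while their WT log2 differences were 0.41, -0.83 and -1.22. The 150 bases shown for Pnpla1 hold none of the 3 motifs, and its CCAAT lies 222 bases before the start.

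The regulators split in WT, with 2 members up and 2 down. Insig1 is both a brake on SREBP processing and a target of SREBP. Its libraries read 121, 85.0, 135 and 86.9 in WT vehicle and 58.1, 69.8, 36.1 and 57.2 in WT OXA. They read 115, 96.7, 89.8 and 112 in KO vehicle and 187, 126, 175 and 153 in KO OXA. Neither genotype's groups overlapped, with WT OXA below WT vehicle and KO OXA above KO vehicle. Insig1 fell by 0.95 ± 0.24 on the log2 scale in WT (adjusted p = 0.00460), the KO difference was 0.62 ± 0.24 (adjusted p = 0.235), and the interaction was 1.57 ± 0.34 (adjusted p = 0.00351). It is the tested member with the fewest reads, 1709 over all libraries.

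Srebf2, which encodes the main activator of sterol enzymes, read 1045, 1074, 1146 and 874 in WT vehicle and 1160.2, 1394, 1429 and 1502 in WT OXA. It read 1054, 1000.2, 1157 and 1072 in KO vehicle and 1129, 899, 904 and 1113 in KO OXA. WT OXA lay above WT vehicle and above KO OXA without overlap, while the KO groups overlapped each other. Srebf2 rose by 0.41 ± 0.13 on the log2 scale in WT (adjusted p = 0.0240), and under OXA it was lower in KO than in WT by 0.44 ± 0.13 (adjusted p = 0.0179). Leaving out replicate 4 of WT vehicle, or 1 of replicates 2, 3 and 4 of WT OXA, ended the WT call (0.0559 to 0.0751). The call between genotypes ended on leaving out replicate 3 or 4 of WT OXA, or replicate 2 or 3 of KO OXA (0.0503 to 0.0613).

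Stard4, a soluble carrier that moves cholesterol between membranes, read 640.3, 487, 471 and 446 in WT vehicle and 786, 1442, 960.5 and 1549 in WT OXA. In KO it read 434, 468, 477 and 739 under vehicle and 884, 883, 724 and 628 under OXA. All WT OXA libraries lay above all WT vehicle libraries, and the KO groups overlapped through KO vehicle replicate 4. Stard4 rose by 1.17 ± 0.21 on the log2 scale in WT (adjusted p = 0.000341), and its KO difference was 0.58 ± 0.21 (adjusted p = 0.217). The interaction, -0.59 ± 0.30, did not pass (adjusted p = 0.187), although with equal totals it did (adjusted p = 0.0120).

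Srebf1, the fatty acid arm's factor, read 308, 258, 359 and 354 in WT vehicle and 197, 260.2, 180.5 and 230.1 in WT OXA. It read 259, 249, 308 and 233 in KO vehicle and 262, 174, 204 and 374 in KO OXA. Both pairs of groups overlapped. The log2 fall of 0.56 ± 0.21 in WT (adjusted p = 0.0452) was lost with edgeR, with equal totals, with no filter and without any 1 of 10 libraries (0.0501 to 0.132), WT vehicle replicates 1, 3 and 4, WT OXA replicates 1, 3 and 4 and KO vehicle replicates 1 to 4. Rai1 shares 109 bases of the Srebf1 tail on the opposite strand, with group means from 163 to 235.

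**Figure D3:**
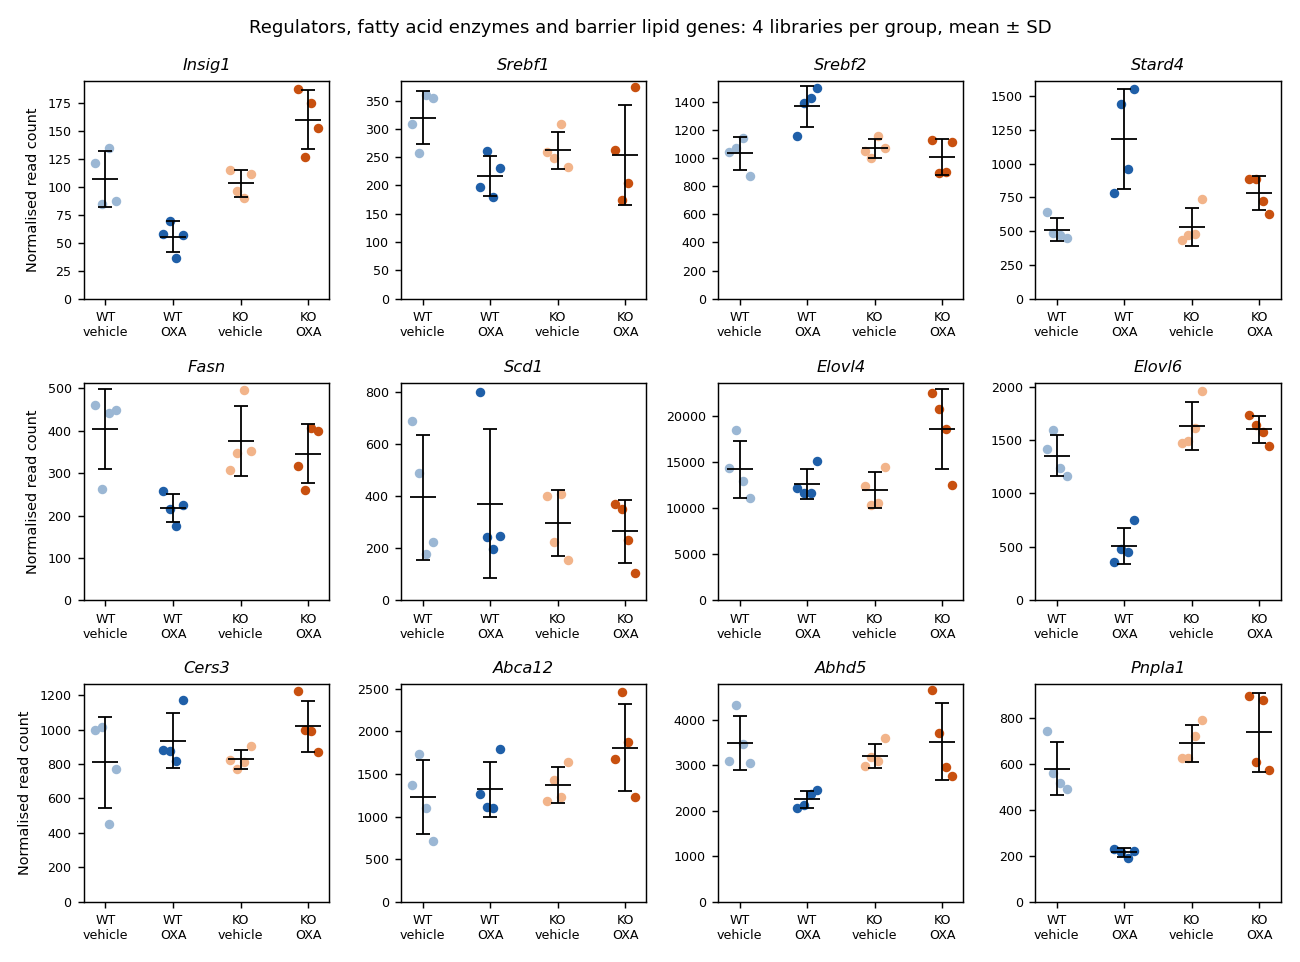
Normalised read counts of 12 members by group, 1 dot per library, with the mean and SD (n = 4) in black and axes that start at 0. WT OXA lies below every other library for Insig1, Fasn, Elovl6, Abhd5 and Pnpla1, and above every other library for Srebf2. The margin is narrow for Fasn and Srebf2. Scd1 has 1 high WT OXA library, and for Cers3 and Abca12 the vehicle and OXA libraries overlap in both genotypes.

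Of the 5 genes of fatty acid synthesis and desaturation, Fasn alone fell in WT. Fasn, fatty acid synthase, read 459.9, 263, 441 and 450.2 in WT vehicle and 258, 215, 176 and 225 in WT OXA, without overlap. It read 307, 347, 496 and 351 in KO vehicle and 317, 261, 407 and 399 in KO OXA, with overlap. The log2 level fell by 0.86 ± 0.21 in WT (adjusted p = 0.00355), and the KO difference was -0.12 ± 0.21. The interaction was 0.74 ± 0.30 (adjusted p = 0.0875). Under OXA Fasn was higher in KO than in WT by 0.65 ± 0.21 (adjusted p = 0.0247), a call that ended on leaving out replicate 2 or 3 of WT OXA, or 3 or 4 of KO OXA (0.0515 to 0.0894). It was also lost with equal totals (0.411) and thinned reads (0.0503). Equal totals ended the WT call (adjusted p = 0.0565).

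Acly splits citrate to supply acetyl-CoA to both sterol and fatty acid synthesis. Its values were 1078, 913, 876 and 1132 in WT vehicle and 834, 815, 700.0 and 842 in WT OXA. In KO they were 784, 828, 889 and 816 under vehicle and 1383, 1192, 1068 and 1005 under OXA. OXA libraries lay below vehicle libraries without overlap in WT and above them without overlap in KO. Neither log2 difference passed alone, -0.32 ± 0.13 in WT (adjusted p = 0.0712) and 0.48 ± 0.13 in KO (adjusted p = 0.0802), but the interaction did, at 0.80 ± 0.19 (adjusted p = 0.00656). With equal totals the interaction was lost (adjusted p = 0.158).

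Scd1, a stearoyl-CoA desaturase, varied widely among libraries of a group. It read 689.8, 489.9, 179 and 223 in WT vehicle and 800.2, 244, 195 and 245 in WT OXA. It read 401, 224, 409 and 153 in KO vehicle and 369, 351, 230.2 and 106 in KO OXA. WT OXA replicate 1 stood apart from the other 3 libraries of its group, and all groups overlapped. The log2 difference in WT was -0.13 ± 0.48 (adjusted p = 0.862). The same library was the highest of its group for the adipocyte markers Adipoq, 238, 55.4, 54.9 and 17.3, Plin1, 70.8, 11.3, 6.28 and 6.48, and Cfd, 942, 322, 178 and 117. These are 3 of 10 listed adipocyte markers, named after their values were seen, and the others are not reported here for single libraries. The part of adipocyte markers in the Scd1 value was not tested. Reads of Scd1 and its paralogue Scd2 may be split between them. Scd2 showed log2 differences of 0.07 ± 0.17 in WT and 0.57 ± 0.17 in KO (adjusted p = 0.106), and Acaca, which makes malonyl-CoA, 0.21 ± 0.23 and -0.07 ± 0.23. Neither passed.

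Elongases add carbon pairs to acyl chains, and 3 of the 4 tested fell in WT. Elovl6, which acts on long chains made by fatty acid synthase, read 1417, 1592, 1241 and 1159 in WT vehicle and 357, 477, 452 and 748 in WT OXA. It read 1468, 1491, 1609 and 1956 in KO vehicle and 1738, 1641, 1574 and 1444 in KO OXA. Every WT OXA library lay below every other library. Elovl6 fell by 1.45 ± 0.18 on the log2 scale in WT (adjusted p = 6.26e-06), the KO difference was -0.02 ± 0.18, and the interaction was 1.43 ± 0.26 (adjusted p = 0.000797).

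Elovl7, a very long chain elongase, read 1947, 2339.6, 1684 and 1738 in WT vehicle and 845, 1044, 980.5 and 1284 in WT OXA. The KO values were 1638, 1668, 1462 and 2281 under vehicle and 2694, 2668, 2531 and 1476 under OXA. KO OXA replicates 1, 2 and 3 lay above all KO vehicle libraries and replicate 4 lay within the KO vehicle range. Elovl7 fell by 0.90 ± 0.19 on the log2 scale in WT (adjusted p = 0.00151) with an interaction of 1.29 ± 0.28 (adjusted p = 0.00339). Elovl1, which serves ceramides with very long chains, fell by 0.73 ± 0.21 (adjusted p = 0.0121), from 1913 ± 216 to 1174 ± 293 (SD, n = 4 each). The Elovl1 call was lost with equal totals and without WT OXA replicate 3 (adjusted p = 0.0551). Cdc20, a cell cycle gene, shares 53 bases of the Elovl1 tail on the opposite strand, at 84.3 in WT vehicle and 99.7 in WT OXA.

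Elovl4 makes the ultra-long chains of barrier acylceramides, and no difference of its level passed. It read 14305, 18439, 12922 and 11123 in WT vehicle and 12184, 11621, 11605 and 15096 in WT OXA. It read 12404, 10318, 10531 and 14494 in KO vehicle and 22538, 20738, 18604 and 12471 in KO OXA. The WT groups overlapped, and 3 of 4 KO OXA libraries lay above all others of the study. The log2 difference was -0.15 ± 0.21 in WT (adjusted p = 0.613) and 0.62 ± 0.21 in KO (adjusted p = 0.167), and the interaction, 0.77 ± 0.30, did not pass (adjusted p = 0.0769). Without KO OXA replicate 4 both the KO difference and the interaction passed, as they did with DESeq2.

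Among the ceramide and barrier genes, 2 of 6 fell in WT, Pnpla1 and Abhd5. Pnpla1 is the transacylase that joins linoleate to ceramide to give acylceramide. It read 744, 561, 514 and 490.3 in WT vehicle and 231, 216, 188 and 222 in WT OXA. Its KO libraries read 623, 623, 721 and 788 under vehicle and 895, 605, 875 and 573 under OXA. The WT OXA libraries were low and tightly grouped, below all others. Pnpla1 fell by 1.41 ± 0.17 on the log2 scale in WT (adjusted p = 5.51e-06), against 0.08 ± 0.17 in KO, with an interaction of 1.49 ± 0.25 (adjusted p = 0.000410).

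Abhd5 activates lipases of the Pnpla family, PNPLA1 among them. It read 3089.8, 4329.9, 3472 and 3051 in WT vehicle and 2064, 2132, 2375 and 2457 in WT OXA, without overlap. It read 2986, 3174, 3088 and 3594 in KO vehicle and 4655, 3707, 2971 and 2766 in KO OXA, with overlap. Abhd5 fell by 0.62 ± 0.16 on the log2 scale in WT (adjusted p = 0.00639) and its interaction was 0.72 ± 0.23 (adjusted p = 0.0348). Equal totals ended both calls. The interaction was also lost with no filter, with quantile normalization and without any 1 of 10 libraries (0.0518 to 0.0701), WT vehicle replicates 2 and 3, WT OXA replicates 1, 2 and 3, KO vehicle replicates 1, 2 and 3 and KO OXA replicates 1 and 2.

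Cers3 and Abca12, the ceramide synthase for ultra-long chains and the transporter that fills lamellar granules, did not pass in any comparison. In WT Cers3 read 998, 1014, 452 and 773 under vehicle and 879, 875, 818 and 1172 under OXA. In KO it read 826, 771, 811 and 904 under vehicle and 1225, 997, 990.2 and 871 under OXA. In WT Abca12 read 1367, 1737, 1104 and 713 under vehicle and 1271, 1109, 1101 and 1795 under OXA. In KO it read 1178, 1427, 1227 and 1638 under vehicle and 1676, 2467, 1872 and 1231 under OXA. Vehicle and OXA libraries overlapped in both genotypes for both genes. The WT log2 differences were 0.26 ± 0.20 and 0.14 ± 0.24. Ugcg, glucosylceramide synthase, and Smpd1, acid sphingomyelinase, showed 0.08 ± 0.21 and -0.14 ± 0.21 in WT and 0.35 ± 0.21 and 0.16 ± 0.21 in KO, none of which passed. With equal totals Cers3 passed upward in WT (adjusted p = 0.0200).

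Further genes of the same pathways were taken from 4 lists, of which 74 genes were tested. In WT 12 rose and 24 fell, in KO 1 rose (Hacd3) and 0 fell, and 23 passed upward and 0 downward in the interaction. Over all genes 18% rose and 16% fell in WT, 1.81% rose and 0.0896% fell in KO, and the interaction passed for 10.1% upward and 7.67% downward. At an unadjusted p under 0.05, 3 were lower in KO and 6 downward in the interaction. The median log2 difference in WT was -0.16 over these genes.

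Sptssb, a small subunit of serine palmitoyltransferase, the first enzyme of ceramide synthesis, fell by 4.12 ± 0.28 on the log2 scale in WT (adjusted p = 1.73e-09), from 2661 ± 876 to 155 ± 62.2 (SD, n = 4 each), and showed 0.44 ± 0.28 in KO. The subunit Sptlc3 fell by 1.46 ± 0.17, while the subunits Sptlc2 and Sptssa, named after their values were seen, rose by 0.76 ± 0.19 and 0.70 ± 0.21. Lipk, an epidermal lipase, fell by 3.25 ± 0.23 and Aloxe3, a lipoxygenase that acts on acylceramide, by 1.47 ± 0.21. Of the 27 tested genes of this ceramide list, 9 fell and 4 rose in WT and 12 passed upward in the interaction.

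The elongation cycle itself, shared by all elongases, fell in part as well. Hsd17b12, Hacd2, Hacd3 and Tecr, which carry the reduction and dehydration steps after an elongase has acted, fell in WT by 0.80 ± 0.19, 1.44 ± 0.14, 0.88 ± 0.19 and 1.66 ± 0.20 on the log2 scale. Hacd1, a muscle form of the dehydratase, showed 0.24 ± 0.19. Hsd17b12 and Hacd1 were added to complete the cycle after their values were seen. Slc27a4, an acyl-CoA synthetase of the epidermal barrier, fell by 1.13 ± 0.12 (adjusted p = 1.39e-06). In KO Hacd3 rose by 0.92 ± 0.19 (adjusted p = 0.00964), and the interaction passed upward for Hsd17b12, Hacd2, Hacd3 and Tecr. Of 22 tested fatty acid genes of this list 8 fell and 3 rose in WT.

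**Figure D4:**
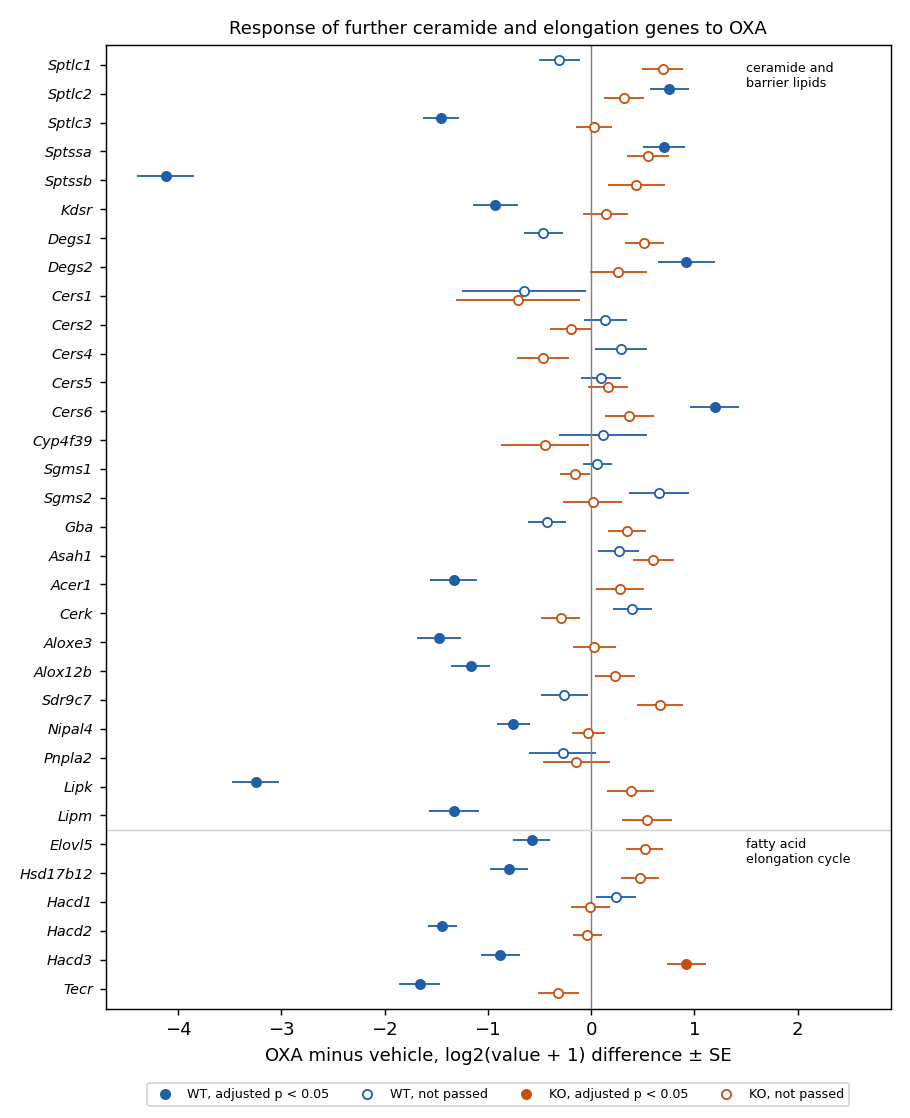
OXA minus vehicle difference of log2(value + 1) with its SE for 27 further ceramide and barrier genes and 6 genes of the elongation cycle, in WT (blue) and KO (orange). Filled points passed; Sptssb and Lipk lie farthest left in WT, and Hacd3 is the 1 filled KO point.

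Among 14 further sterol genes 3 fell in WT. Stard3, a late endosomal sterol carrier, fell by 1.19 ± 0.17 and Cyb5r3, which supplies electrons to sterol oxidases, by 0.93 ± 0.20 on the log2 scale. Acat2, which condenses acetyl-CoA at the start of the route, fell by 0.56 ± 0.21 (adjusted p = 0.0474).

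The 11 genes of sterol efflux, esterification and liver X receptor (LXR) response split in WT, with 4 up and 4 down. Nr1h2, an LXR itself, fell by 1.71 ± 0.17, Apoe by 1.16 ± 0.19 and Cyp27a1, a sterol hydroxylase, by 0.76 ± 0.13 on the log2 scale. Soat1, which esterifies cholesterol, rose by 1.61 ± 0.29, and Abca1, the sterol exporter, showed 0.43 ± 0.18 (adjusted p = 0.0667).

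Markers of the epithelial layers changed in both directions in WT. Of the squamous markers Krt14, a keratin of the basal layer, rose by 2.04 ± 0.20 on the log2 scale (adjusted p = 4.22e-07) and Dsg3, a desmosomal cadherin, by 1.34 ± 0.24 (adjusted p = 0.000324). The basal keratin Krt15 fell by 2.38 ± 0.28 (adjusted p = 3.11e-06). Of 11 tested suprabasal and cornified layer genes 7 fell and 1, Dsg1b, rose. The summed values of this list were 1.39 to 2.07 M in WT vehicle and 0.476 to 0.767 M in WT OXA, and 1.54 to 1.83 M in KO vehicle against 1.37 to 2.91 M in KO OXA. Krt4 and some other genes stand in this list and in the squamous list, so their sums are not separate evidence. Crnn was at 0 in both vehicle groups. Flg, filaggrin, averaged 219.6 in WT vehicle and 1.70 in WT OXA, and Lor, loricrin, fell by 2.35 ± 0.26 on the log2 scale. Of 8 cell cycle genes 6 rose in WT and 0 in KO (0 at an unadjusted p under 0.05), with sums of 2179 to 3260.1 in WT vehicle and 7585 to 12593 in WT OXA. The part of epithelial layer composition in the lipid results was not tested.

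Markers of other tissues moved as well. In WT 4 of 8 skeletal muscle and 3 of 6 smooth muscle genes fell. Skeletal muscle sums were 153982 to 285167 in WT vehicle and 82966 to 151028 in WT OXA, and smooth muscle sums 26780 to 53270 and 19411 to 33352. Both tested airway club cell genes fell, with list sums of 35762 to 54350 in WT vehicle and 615 to 1041 in WT OXA. Macrophage markers rose for 5 of 7 genes in WT and 4 of 7 in KO. Adipocyte sums overlapped, 16858 to 27911 in WT vehicle and 14278 to 26032.5 in WT OXA, with 0 of 9 genes called in either genotype (1 higher and 1 lower in WT and 1 lower in KO at an unadjusted p under 0.05). Under OXA, however, 2 of the 9 (Cfd and Fabp4) were lower in KO than in WT. Sebocyte markers were few: 3 of 7 were tested, Mc5r was at 0 in 3 groups, and 2 (Far2 and Krt79) fell in WT. Of 6 Schwann cell markers 0 of 5 tested were called and Pmp2 was at 0 in every library. The part of these cell types in the lipid results was not tested.

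Within groups, single libraries often held the highest or lowest values of many sterol enzymes. Of the 16 tested enzymes WT OXA replicate 4 had the highest value of its group for 12 and KO vehicle replicate 4 for 12. WT OXA replicate 1 was lowest for 10. KO OXA replicate 1 was highest for 11, and KO OXA replicate 4 was lowest for 8. In WT vehicle replicate 1 was highest for 8 and replicate 4 lowest for 8. KO OXA replicate 1 also had the largest share of reads from the keratin Krt4, 13.2% against 7.94% to 10.2% in the rest of its group. The summed sterol enzyme values reached from 15373 to 27210 in KO OXA, the widest range of the 4 groups, against 11133 to 14895 in WT OXA.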

How the data were processed

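Values were deposited as 1 table of normalised read counts (a signal: counts divided by 1 size factor per library by the authors). Per the submitters' processing notes, FastQC 0.11.5, Trim Galore, cutadapt 1.10, TopHat2 2.1.0, Bowtie2 2.2.6, HTSeq 0.6.1, DESeq2 1.28.0 and build GRCm38 were used. The annotation release, strand and handling of molecular identifiers are not given in the sources used here. Dividing each value by the smallest step of its library gave whole reads for 100% of values (tolerance 0.1 of a read), 5.61 to 27.3 M (mega) per library. Reads without molecular identifiers are not independent molecules, so depth limits cover counting error only.

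The 16748 genes that reached a value of 5 in 4 or more libraries were tested with limma 3.58.1 (R 4.3.3) on log2(value + 1), with 4 group means, a trended prior and Benjamini-Hochberg adjustment over all tested genes, two-sided, at 0.05. On this scale low genes show too small a difference. OXA was compared with vehicle in each genotype, the 2 effects with each other (the interaction), and KO with WT under each treatment. On the recovered reads edgeR 4.0.16 called 2860 genes higher and 2649 lower in WT, against 3019 and 2673 with limma. The procedure was checked on simulated data. Alternatives were other pseudocounts, filters, scalings, tools (DESeq2 1.42.0 too), thinned reads and each library left out.

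The members and lists were chosen with earlier results of these data known. Values in every library are given for members that passed in the interaction, the member with the smallest p in WT of each role, and fixed regulators and barrier genes. Of each other list the 4 genes with the smallest p in WT are named, with Abca1 and Il13ra1 always. Some genes that this rule names are not reported here. Lbr, Hsd17b12, Hacd1, Sptlc2, Sptssa, Flg, Lor, the other marker genes and the genes that share a tail were named after their values were seen. Promoter sequences are RefSeq's (GRCm38.p6). No protein sequence was used here.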

Additional observations from a re-analysis of the deposited data

Results flagged for a closer look

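In 15 of 141 sets of 4 libraries (1 member in 1 group), the highest or lowest library stood apart from the other 3 by Dixon's gap test at 95%, which chance flags in about 1 set in 20. KO vehicle replicate 4 was high for Hmgcs1 (2626 normalised read counts), Cyp51 (2265), Msmo1 (3619) and Stard4 (739). KO vehicle replicate 3 was high for Smpd1 (944). In KO OXA, replicate 1 was high for Sqle (1335) and Smpd1 (1821), and replicate 4 was low for Elovl7 (1476). In WT OXA, replicate 1 was high for Scd1 (800.2), and replicate 4 was high for Elovl4 (15096) and Cers3 (1172). WT OXA replicate 1 also held the single read of Fdps (0.36). That set is counted among the 15, but with the other libraries at 0 the test flags any value. In WT vehicle, replicate 1 was high for Pmvk (204), replicate 2 low for Fasn (263) and replicate 4 low for Idi1 (666).

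The effect of OXA differed between KO and WT for 12 members by limma's interaction term, each with the KO effect higher. The log2 differences of effects were 1.13 for Pmvk, 1.04 for Fdft1, 1.41 for Lss, 1.63 for Msmo1, 0.97 for Ebp and 2.60 for Tm7sf2. They were 1.57 for Insig1, 0.80 for Acly, 1.43 for Elovl6, 1.29 for Elovl7, 0.72 for Abhd5 and 1.49 for Pnpla1.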

How the results depend on the processing

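No single gene's call changed its direction under any alternative, but the balance of member calls in WT turned with equal totals, from 2 higher and 15 lower to 8 and 7. All alternatives kept 8 of 17 member calls in WT, 1 of 1 in KO, 7 of 12 in the interaction and 9 of 18 in KO against WT under OXA. Members higher in WT numbered 2 in the main analysis, 8 at equal totals, 5 under quantile normalization, and 4 both with only the groups compared and with DESeq2, and members lower numbered 15 and, with equal totals, 7. In KO 1 rose, and 6 with DESeq2. The interaction had 12 higher and 0 lower, 7 and 3 with equal totals, and 1 lower with quantile normalization and with DESeq2. Under OXA 17 were higher and 1 lower in KO, 9 and 3 with equal totals, and 2 lower with quantile normalization, edgeR and DESeq2. At equal totals 30.5% of all genes were higher and 8.93% lower in WT. The shares there were 5.27% and 20.7% in the interaction, and 7.6% and 30.5% between genotypes under OXA. With 1 library left out the counts ranged from 1 to 4 higher and 12 to 16 lower in WT, 1 to 8 higher and 0 to 0 lower in KO, 8 to 16 higher and 0 to 0 lower in the interaction, 0 to 0 in both directions under vehicle, and 15 to 18 higher and 0 to 2 lower under OXA. Equal totals moved the median log2 difference of all genes by 0.31 in WT, -0.12 in KO, -0.42 in the interaction and -0.39 under OXA, quantile normalization by -0.12 in WT, and DESeq2 by 0.11 in the interaction. The cause was not tested. WT vehicle and WT OXA did not overlap in depth, and thinning all libraries to 5.61 M reads moved no count of members by over 1.5 times, though it ended the calls of Pmvk in WT and Fasn under OXA. No paired analysis was possible because replicate numbers follow accession order and the codes in the titles differ between groups.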
